A study of Bos taurus with 6 samples.

Results

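Interferon-stimulated genes are genes that cells switch on when interferon, a secreted alarm protein, reaches its receptors. Type I interferon binds the IFNAR1 and IFNAR2 receptor chains, the kinases JAK1 and TYK2 become active, and transcription factors such as IRF9 enter the nucleus and raise the transcription of antiviral genes. The testis is known for low immune activity toward its own germ cells, and its Sertoli and Leydig cells can respond to interferon. The 10 genes followed here are ISG15, MX1, RSAD2, IFI44, IFI44L, USP18, RTP4, IFI6, IFI27 and XAF1. Every probe set that the platform annotation gives to 1 of these symbols was taken, which made 18 probe sets of the 24128 on the array. All 18 were above the filter on low values, which uses the mean over all 6 arrays. The genes were listed because of their signals on these same arrays, among them the array called 8wk replicate 1, so their levels are given as a description and carry no test.

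Testis tissue came from bull calves of the Angus breed, which were 2, 4 or 8 weeks old. Each age has 2 replicates, each on an Affymetrix bovine array of its own, so there are 6 arrays. No treatment, genotype or infection status is given for any age group. Nothing in the labels says whether the replicates are different calves; p-values below rest on the spread between replicates, and some of that spread may be technical. Values are signal intensities, already scaled by the authors, whose median per array lay between 46.5 and 52.5. The testis label was checked against its defining genes: the Sertoli cell hormone AMH was between 1941.7 and 2755.5 and the Leydig cell hormone INSL3 between 5153.2 and 7694.6 over the 6 arrays. The 2wk replicate 2 array stood farthest from the rest, with a mean correlation of 0.947 to the other arrays against 0.964 to 0.969 for the remaining ones. The number of arrays limits the precision of every value.

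ISG15, MX1, IFI44, USP18, RTP4, IFI44L, IFI27, XAF1 and RSAD2 all had their highest signal on the 8wk replicate 1 array, and IFI6 had its second highest there. The other array of the same age, 8wk replicate 2, lay within the range of the 4 younger arrays for all of these genes except USP18, which was lowest there. The high signals at 8 weeks were thus those of 1 array and not of both. Differences are given as log2(signal + 16), a scale that understates changes of dim probe sets. On this scale the 10 genes were 0.90 to 2.63 higher on 8wk replicate 1 than on 8wk replicate 2, with a median of 1.53, against a median of 0.00 over all 14409 probe sets tested. A difference of at least 1 was reached by 8 of the 10 genes and by 13 of the 18 probe sets, where 0.618% of all tested probe sets reached it. Since the genes were chosen on this array, nothing is read from that count.

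**Figure D1:**
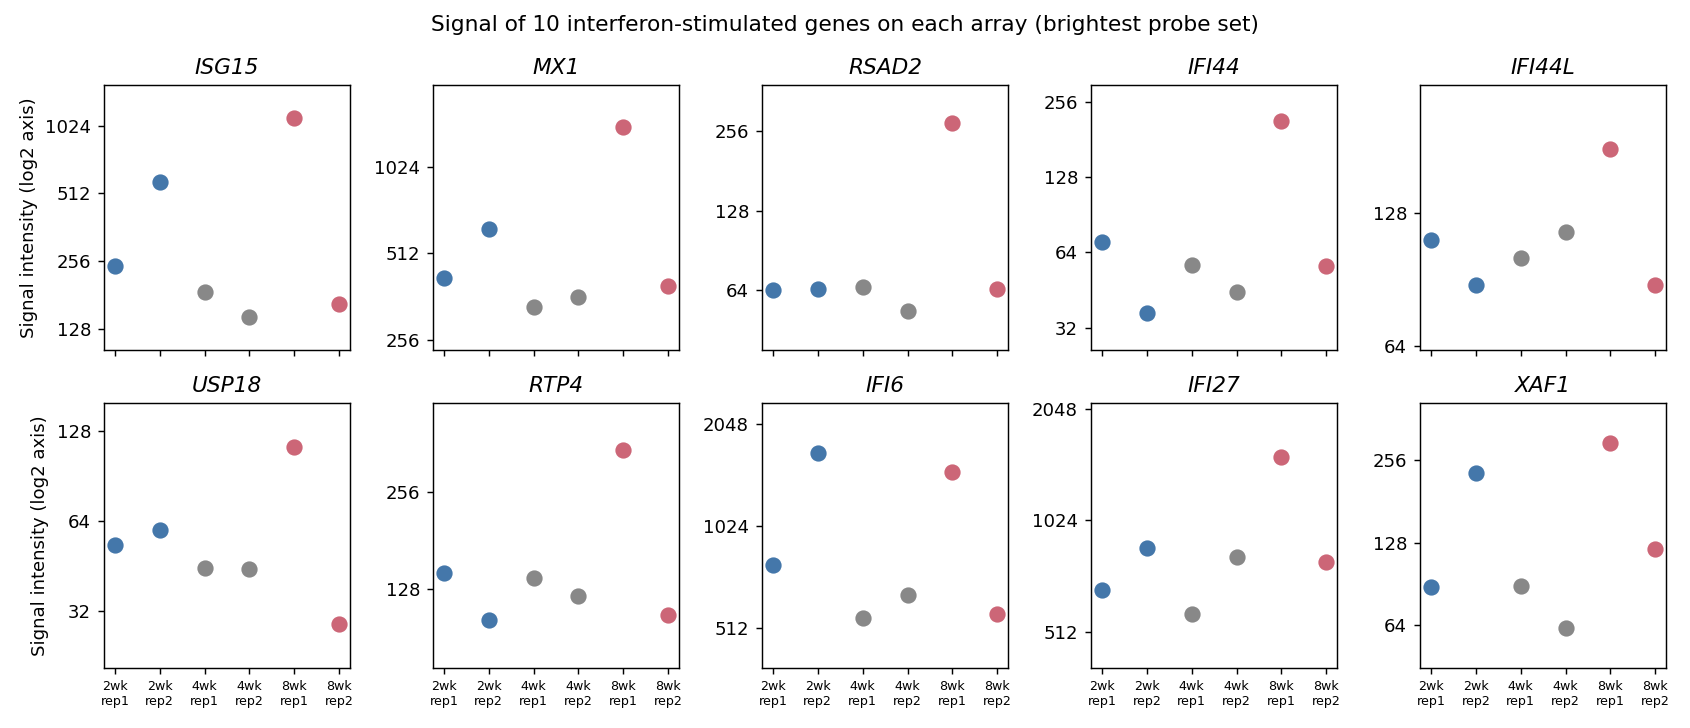
Signal intensity (log2 axis, a separate range in each panel) of the brightest probe set of each of the 10 genes on the 6 arrays, 1 point per array, coloured by age (blue 2 weeks, grey 4 weeks, red 8 weeks). In 9 panels the highest point is 8wk replicate 1; for IFI6 it is 2wk replicate 2, at 1684.6.

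The first group makes or removes the ISG15 tag. ISG15 is a small ubiquitin-like protein that is attached to other proteins during an antiviral response. Its probe set was at 242.8 and 576.3 (2wk replicates 1 and 2), 187.5 and 144.9 (4wk) and 1109.9 and 165.8 (8wk). The 8wk replicate 1 signal was thus 6.69 times that of its partner and 1.93 times the next highest array, 2wk replicate 2. USP18 is the protease that strips ISG15 from proteins and also dampens signalling at the type I receptor. Its brightest probe set was at 53.1 and 59.8 (2wk), 44.7 and 44.2 (4wk) and 112.8 and 29.1 (8wk). The 8-week samples of USP18 therefore held both the highest and the lowest of the 6 signals.

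MX1 and RSAD2 are direct antiviral effectors. MX1, a dynamin-like GTPase that blocks virus replication, was measured by 1 probe set. It stood at 421.8 and 624.8 (2wk), 332.8 and 362.7 (4wk) and 1404.0 and 393.6 (8wk). RSAD2, or viperin, is an enzyme that makes a nucleotide which stops viral RNA synthesis. Its probe set was at 64.4 and 64.6 (2wk), 65.6 and 53.4 (4wk) and 274.5 and 64.8 (8wk). RSAD2 showed the plainest pattern of the 10 genes: 5 arrays lay between 53.4 and 65.6, and 8wk replicate 1 was 4.18 times the highest of them. It was also not raised on 2wk replicate 2, where MX1 had its second highest signal.

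IFI44 and IFI44L are interferon-induced cytoplasmic proteins whose genes lie next to each other in the ARS-UCD2.0 gene table. The brightest of 4 IFI44 probe sets was at 70.6 and 36.6 (2wk), 56.8 and 44.4 (4wk) and 213.9 and 56.4 (8wk). IFI44L was at 111.1 and 87.9, then 101.4 and 116.0, and then 178.8 and 88.1. The neighbours shared the order of the arrays at both ends, since 8wk replicate 1 was highest and 2wk replicate 2 lowest for each, although for IFI44L the lowest signals were nearly equal. They differed in size, with a log2 difference between the 8-week arrays of 1.67 for IFI44 and 0.90 for IFI44L, the smallest among the 10 genes.

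RTP4 is a chaperone that helps some receptors to the cell surface and is induced by interferon. The brightest of its 3 probe sets was at 144.0 and 102.6 (2wk), 138.8 and 121.8 (4wk) and 342.9 and 106.4 (8wk). As with the brightest IFI44 probe set, the lowest signal of this probe set was that of 2wk replicate 2. The other RTP4 probe sets were lowest on 8wk replicate 2, at 70.5 and 45.7.

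IFI6 and IFI27 belong to a family of small hydrophobic interferon-induced membrane proteins, and XAF1 counters an inhibitor of apoptosis. IFI6 was at 784.6 and 1684.6 (2wk), 549.0 and 643.0 (4wk) and 1479.6 and 564.9 (8wk). IFI6 was the single gene of the 10 in which 2wk replicate 2 exceeded 8wk replicate 1. IFI27 was at 664.1 and 865.3, then 574.7 and 814.1, and then 1513.4 and 792.7. Its 8wk replicate 1 signal was 1.91 times that of its partner, the smallest ratio among the 10 genes. XAF1 was at 88.1 and 229.5 (2wk), 88.7 and 62.6 (4wk) and 294.8 and 121.2 (8wk). XAF1 was raised on both arrays, and its log2 difference between replicates was 1.18 at 8 weeks and 1.24 at 2 weeks.

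The order of the genes by their log2 difference at 8 weeks was ISG15 (2.63), RSAD2 (1.85), MX1 (1.79), IFI44 (1.67), RTP4 (1.55), USP18 (1.51), IFI6 (1.36), XAF1 (1.18), IFI27 (0.92) and IFI44L (0.90). Over all tested probe sets the SD of this difference was 0.32, and every gap between neighbours in the order after ISG15 was smaller than that. Among the 6721 genes whose signals reached the highest Bacillus control (28.1, taken as the mark of a dim probe set) on both 8-week arrays, ISG15 was at rank 2 by this difference, RSAD2 at rank 5, MX1 at rank 6 and IFI44 at rank 9. The last of the 10 genes, IFI44L, was at rank 45. A stricter view asks which probe sets were at least 1 above every other array on 8wk replicate 1. There were 11 of these (0.0763% of those tested). Probe sets of the 10 genes made up 6 of them, from RSAD2, IFI44, RTP4 and MX1. Since the array chose the genes, this too is a description. The other 5 were 2 probe sets of LOC100298356, 1 of the G protein subunit gene GNB4 and 2 without a gene symbol; their naming follows from their values.

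On 2wk replicate 2 the 10 genes did not move together. ISG15, IFI6 and XAF1 were 1.19, 1.09 and 1.24 higher than on 2wk replicate 1, MX1 0.55, IFI27 0.37 and USP18 0.13 higher, and RSAD2 differed by 0.00. IFI44 (-0.72), RTP4 (-0.43) and IFI44L (-0.29) were lower. The SD over all tested probe sets for this pair of arrays was 0.58, so 6 of these differences lie within 1 SD of 0: those of MX1, IFI27, USP18, RSAD2, RTP4 and IFI44L. A difference of at least 1 was reached by 3 of the 10 genes, against 1.97% of all tested probe sets, whose median was 0.01. The genes were listed because of signals on these same arrays, so nothing is read from that count. With a pseudocount of 64 or with quantile normalization this count was 2. This array also gave the highest of 6 signals for 31.6% of all tested probe sets, whereas 8wk replicate 1 did so for 11.7%. Between the replicates at 4 weeks the 10 genes differed by -0.41 to 0.49, and 0 reached 1, against 1.11% of all tested probe sets. The 4-week arrays thus give the spread of these genes where neither of the raised arrays enters.

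**Figure D2:**
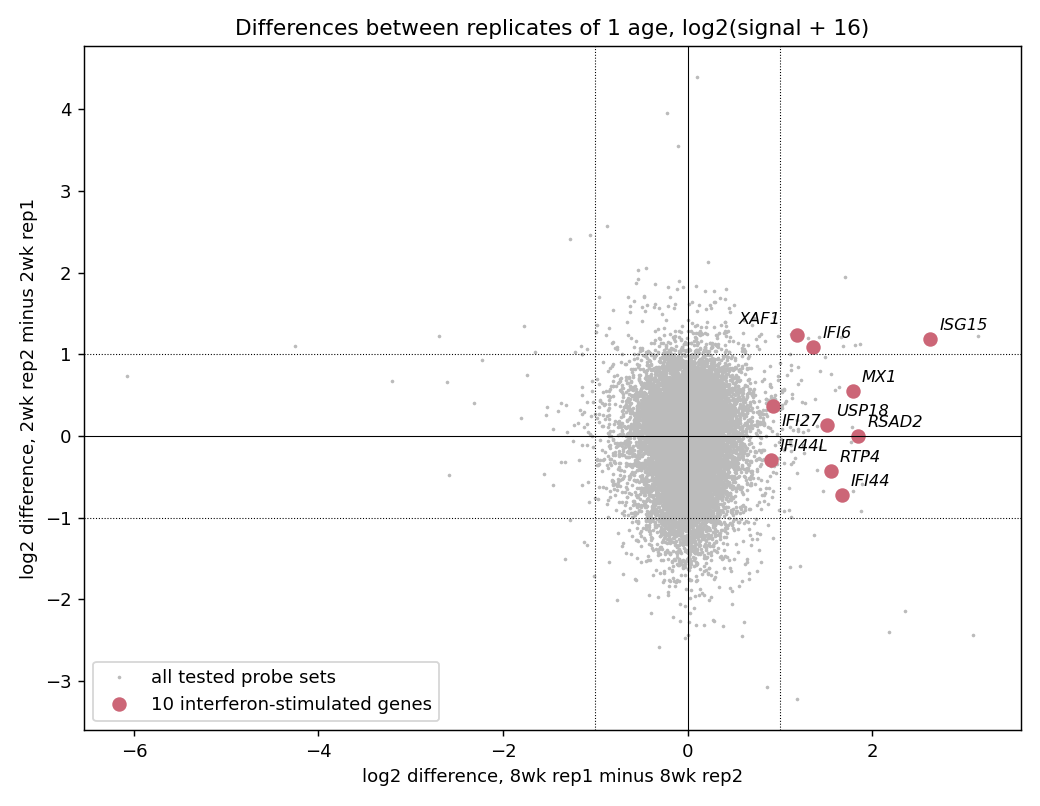
Difference in log2(signal + 16) between replicates at 8 weeks (horizontal) and at 2 weeks (vertical) for 14409 tested probe sets (grey) and the brightest probe set of each of the 10 genes (red); dotted lines mark differences of 1 in either direction. All 10 genes lie right of 0, from 0.90 to 2.63, and spread from -0.72 to 1.24 on the vertical axis.

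Genes with several probe sets were compared among them. All 4 IFI44 probe sets were highest on 8wk replicate 1, with log2 differences of 0.93 to 1.79 between the 8-week arrays, and all 4 were lower on 2wk replicate 2 than on 2wk replicate 1. Of these, 2 fell below the highest Bacillus control signal of 28.1 on 2 arrays each, so no size is read from them there. The Bacillus controls detect bacterial transcripts and mark here how bright a probe set can be without a calf transcript. All 4 USP18 probe sets were highest on 8wk replicate 1 (0.90 to 1.51) and second highest on 2wk replicate 2. Their difference between the 2-week arrays ran from 0.13 to 0.69, so its size for USP18 depends on the probe set, and the brightest one carries the suffix that Affymetrix gives to probes shared by several transcripts. The 3 RTP4 probe sets gave 1.55, 1.12 and 0.91 at 8 weeks and -0.43, -0.18 and -0.30 at 2 weeks. Probe sets of 1 gene thus kept the direction in both pairs of arrays and differed in size. They share the gene and the RNA and are no replicates.

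**Figure D3:**
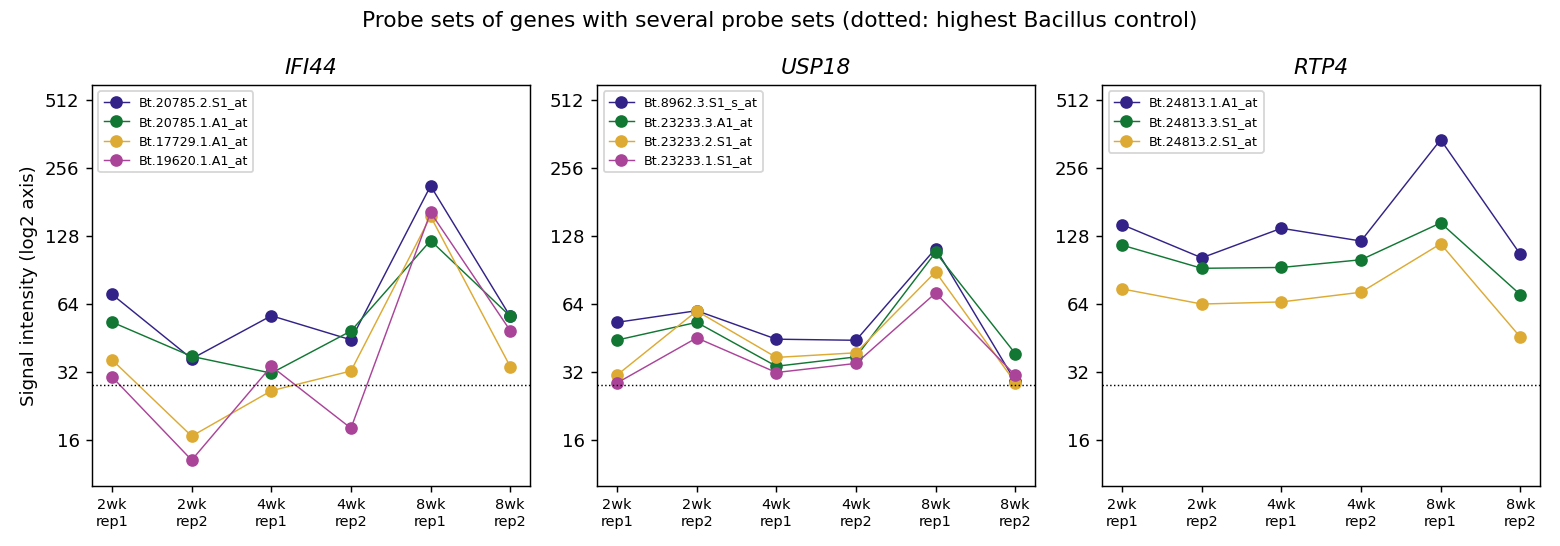
Signal intensity (log2 axis) of the 4 IFI44, 4 USP18 and 3 RTP4 probe sets on the 6 arrays, with the highest Bacillus control signal (28.1) dotted; lines join the points of 1 probe set and imply no time course between replicates. Each of the 11 probe sets peaks on 8wk replicate 1, and the IFI44 and RTP4 ones dip on 2wk replicate 2 relative to 2wk replicate 1.

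Compared by age, which is the contrast the study was set up for, the means of the 10 genes differed with large errors. ISG15 averaged 410.0 ± 236.0 (SD, n = 2) at 2 weeks, 166 ± 30.1 at 4 weeks and 638 ± 668 at 8 weeks. RSAD2 averaged 64.5 ± 0.141, 59.5 ± 8.63 and 170.0 ± 148, and IFI6 1234.6 ± 636, 596 ± 66.5 and 1022.2 ± 647. At 8 weeks the SD of ISG15 exceeded its mean. Between 8 and 2 weeks the log2 differences ran from -0.32 (IFI6, SE 0.43) to 0.93 (RSAD2, SE 0.47, and IFI44, SE 0.46), with a median of 0.45 against -0.02 over all tested probe sets. Between 4 and 2 weeks they ran from -1.11 (ISG15, SE 0.67) to 0.12 (IFI44L), with a median of -0.20 against 0.01. Between 8 and 4 weeks they ran from 0.19 (IFI44L) to 1.32 (ISG15, SE 0.67), with a median of 0.81 against -0.01.

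Of the 18 probe sets, 0 passed an adjusted p under 0.05 (limma, Benjamini-Hochberg) in any of the 3 comparisons, and so did 0.0% of all 14409 probe sets. Since the genes were chosen on these arrays, nothing about them is read from that count. At an unadjusted p under 0.05 limma had 6.95% of all tested probe sets between 8 and 2 weeks, 3.6% between 4 and 2 weeks and 2.5% between 8 and 4 weeks. Without 2wk replicate 1, limma called 1926 probe sets between 8 and 2 weeks and 1128 between 4 and 2 weeks, among them 1 IFI44 probe set, a dim one, between 8 and 2 weeks (limma adjusted p = 0.0452). That fit leaves the 2-week group with 2wk replicate 2 alone and assumes that it varies like the other ages. By the brightest probe set of each gene, samples of both ages did not overlap for RSAD2 between 8 and 2 weeks. Its nearest signals were almost equal, 64.8 at 8 weeks and 64.6 at 2 weeks. Of all tested probe sets, 16.6% were higher without overlap. Between 8 and 4 weeks MX1 and XAF1 were higher without overlap, against 16.3% of all. ISG15, MX1, USP18 and IFI6 were lower without overlap between 4 and 2 weeks, against 14.2% of all. Some other probe sets of IFI44 and USP18 differed from the brightest one in whether the ages overlapped.

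The age differences of the group changed when an 8-week array was left out. Without 8wk replicate 1 the median difference of the 10 genes between 8 and 2 weeks was -0.20, with 3 genes above 0 and 7 below, and a range from -1.11 for ISG15 to 0.10 for IFI44. Between 8 and 4 weeks it was 0.05, with 6 genes above 0 and 4 below. Without 8wk replicate 2 the medians were 1.18 and 1.54. The direction of the 8-week comparison with 2 weeks was thus set by which 8-week array was used. A measure of RNA quality also moved with age: the ratio of the 3′ to the 5′ actin control probe set was 4.05 to 10.1 on the 2-week and 4-week arrays, 25.6 on 8wk replicate 1 and 34.9 on 8wk replicate 2. The same ratio for GAPD, another control, was 0.898 to 1.02 on all 6 arrays. Both ratios also differed between the replicates of an age, always in the same direction. The actin ratio was higher on replicate 2 than on replicate 1 at 2 weeks (10.1 and 4.47), 4 weeks (9.91 and 4.05) and 8 weeks (34.9 and 25.6), and the GAPD ratio was lower on replicate 2 at each age (0.967 and 1.02, 0.898 and 0.977, and 0.953 and 1.02). The 10 genes, which were chosen on 8wk replicate 1, were all higher there than on its partner, as were 49.3% of all tested probe sets. On replicate 2, 7 were higher at 2 weeks, against 50.9% of all tested probe sets, and 4 at 4 weeks. The 7 include RSAD2, whose 2-week signals were almost equal (64.4 and 64.6). Nothing about RNA quality is read from these counts. The part of RNA quality in the age comparison, and in the differences between replicates, was not tested.

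The rest of the interferon pathway was described with 9 lists, without the 10 genes. These lists were chosen by function, but with earlier results of these data known, and serve as a description. They held 91 genes with a named probe set, of which 72 lay in the upper 60% of probe sets that were tested. Of the 72, 0 passed an adjusted p under 0.05 in limma in any age comparison. At an unadjusted p under 0.05 in limma, 2 were higher between 8 and 2 weeks (SAMD9 and GBP4; 3.54% of all tested probe sets) and 3 were lower (CISH, SHISA5 and PSMB10; 3.41%). Between 4 and 2 weeks 1 was lower (PSMB10; 1.6%), and between 8 and 4 weeks there were 0. The lowest limma adjusted p over these and the cell marker lists was 0.526. No probe set is named here for TYK2, RIGI, IFIH1 or OAS2.

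Of 24 interferon ligand genes listed, 4 had a named probe set and 1, IFNG, was tested, so nothing is said of the rest. The ligand probe sets other than that of IFNG were dim. IFNB1, the interferon beta gene, was between 0.3 and 2.6 on the 6 arrays, IFNT2, an interferon tau gene, between 3.4 and 13.2, and IFNAC, an interferon alpha gene, between 14.2 and 29.9. The first 2 of these lay below the highest Bacillus control on all arrays, so no level is read from them. IFNG, interferon gamma, was brighter, with its lowest signal (18.8) on 8wk replicate 2 and its highest (62.3) on 2wk replicate 2. Receptor signals differed little between the 8-week arrays: IFNAR2 was at 73.4 and 87.3, and IFNGR2, a chain of the interferon gamma receptor, at 126.5 and 113.5. IFNAR1 was below the filter, at 20.2 to 39.5.

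Signalling genes were described on the same arrays. The 10 genes were chosen on 8wk replicate 1, so no contrast in size with them is read here. The median log2 difference of 9 JAK-STAT genes between 8wk replicate 1 and 8wk replicate 2 was 0.09, against 0.00 over all tested probe sets. Of these 9 genes, 0 reached 1, where 0.618% of all tested probe sets did. JAK1, the kinase bound to the receptor, was at 1042.2 and 948.4, and STAT2 at 97.5 and 83.9. IRF9, a DNA-binding factor of this pathway, was at 256.6 and 151.1 at 8 weeks, with its highest signal, 325.3, on 2wk replicate 2. Among the interferon regulatory factors, IRF7, itself an interferon-induced transcription factor, was at 128.3 and 56.8 at 8 weeks (log2 difference 0.99) and at 62.3 to 107.7 on the other 4 arrays. IRF3, its constitutive relative, was at 395.1 and 318.6 at 8 weeks. IRF7 thus had its highest signal on 8wk replicate 1, while IRF3 was highest on 2wk replicate 2, at 443.0.

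Sensors and the enzymes that attach ISG15 were mixed. DHX58, a relative of the RNA sensor RIG-I, was at 115.2 and 60.7 at 8 weeks (0.77), and the RNA receptor TLR3 was at 96.1 and 85.3. UBA7, the enzyme that activates ISG15, was at 230.4 and 154.5 (8wk) and 146.7 and 246.5 (2wk). UBE2L6, which carries ISG15 in the next step, was at 124.5 and 126.7 (8wk) and 132.5 and 251.2 (2wk). UBE2L6 thus separated the 2-week arrays and not the 8-week arrays, unlike ISG15, which separated both pairs. The ligase genes HERC5 and HERC6 lay below the highest Bacillus control on all arrays.

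Other antiviral effectors shared the high signal on 8wk replicate 1 in part. Of 26 tested genes, 21 were higher there than on 8wk replicate 2, where 49.3% of all tested probe sets were higher, and 3 were higher by at least 1, where 0.618% of all were. The median was 0.50, against 0.00 over all. IFITM1, a membrane protein that hinders virus entry, was at 1553.8 and 620.3 (8wk) and 649.4 and 1507.3 (2wk). GBP4, a guanylate-binding protein, was at 179.0 and 65.3 at 8 weeks and at 42.0 to 90.1 on the other arrays. EPSTI1 was at 451.8 and 206.8 and the helicase ZNFX1 at 358.2 and 180.0. MX2, the paralogue of MX1, lay below the filter: it was at 78.7 on 8wk replicate 1 and at 3.3 to 25.7 on the other 5 arrays, all under the highest Bacillus control, and its difference is not sized. IFITM1 and the guanylate-binding proteins belong to families of near-identical genes, between which probes may not separate.

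Genes of the interferon gamma response and antigen processing were described in the same way. Of 15 tested, 11 were highest on 2wk replicate 2, as were 31.6% of all tested probe sets, and 4 on 8wk replicate 1, as were 11.7% of all. The immunoproteasome subunit PSMB9 was at 623.0 and 1356.4 (2wk) and 669.2 and 729.8 (8wk). TAP1, which carries peptides for class I molecules, was at 233.4 and 481.0 (2wk) and 277.1 and 239.8 (8wk). TAP2 (932.0 and 398.9), GBP1 (833.7 and 375.7) and GBP5 (120.3 and 47.1) did separate the 8-week arrays, by 1.19, 1.12 and 1.11. Over the list the median difference was 0.25 at 8 weeks and 0.85 at 2 weeks, while for the other antiviral effectors it was 0.50 and 0.17. The difference between the lists was not tested. Chemokines that interferon induces had a median of -0.13 at 8 weeks and 0.53 at 2 weeks. Of 7 tested, 2 were higher on 8wk replicate 1 than on its partner, CXCL10 (371.4 and 274.7) and CCL5 (227.0 and 143.9). The other 5, CXCL11, CCL3, CCL4, CCL8 and CXCL16, were lower there, by log2 differences from -0.34 (CCL4) to -0.11 (CXCL11). On 2wk replicate 2, 6 of the 7 were higher than on 2wk replicate 1, where 50.9% of all tested probe sets were, CCL5 among them at 477.1 and 189.3.

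**Figure D4:**
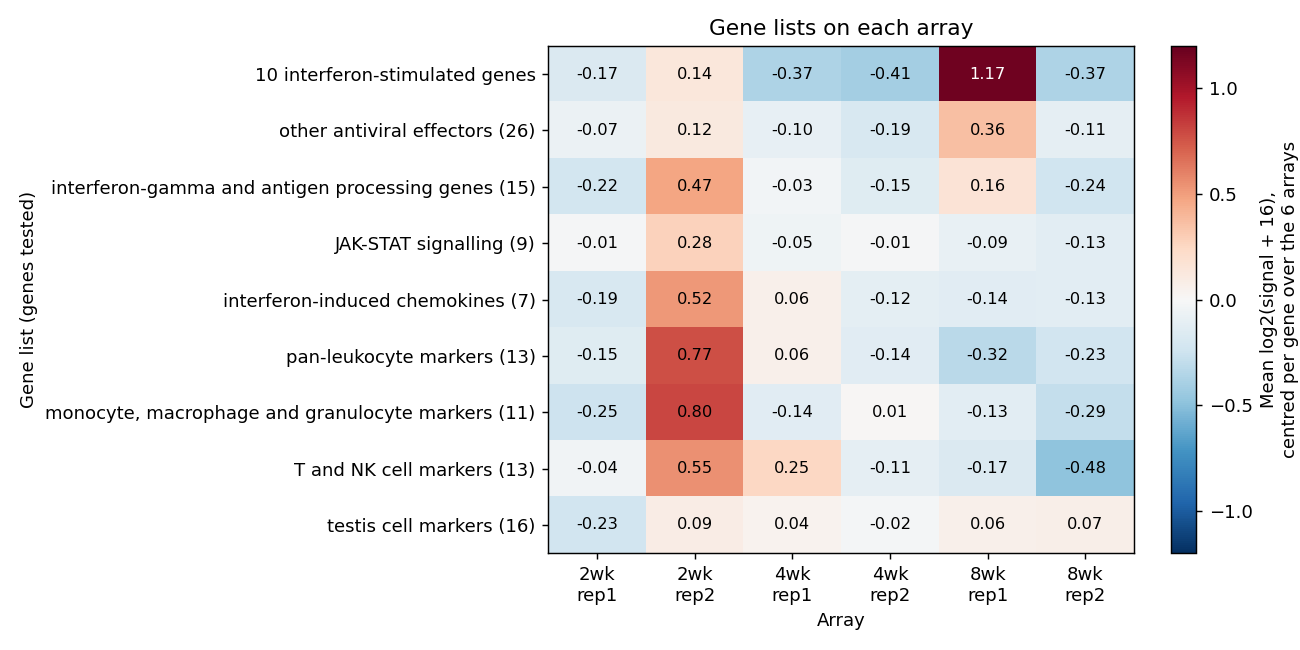
Mean log2(signal + 16) per gene list and array, after centring each gene on its mean over the 6 arrays; colour and printed number give the same value, and brackets give the genes tested. The 10 genes stand at 1.17 on 8wk replicate 1, where the pan-leukocyte markers stand at -0.32; on 2wk replicate 2 these are at 0.14 and 0.77.

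Markers of other cells were set beside these values. Most leukocyte markers had their highest signal on 2wk replicate 2, as did 31.6% of all tested probe sets. This held for 12 of 13 pan-leukocyte markers, 11 of 11 monocyte, macrophage and granulocyte markers and 11 of 13 T and NK cell markers. The pan-leukocyte marker PTPRC went the other way, at 393.2 and 299.8 on the 2-week arrays. Of 2 B and plasma cell markers tested, 1 was highest on 2wk replicate 2, while JCHAIN was lower there (89.9 and 44.3 on the 2-week arrays). The pan-leukocyte markers summed to 2917.5 and 5795.6 on the 2-week arrays, to 3478.9 and 2842.6 on the 4-week arrays and to 2492.7 and 2654.0 on the 8-week arrays. That of 15 monocyte, macrophage and granulocyte markers on the array was 2322.3 and 5096.9, then 2572.8 and 2620.8, and then 2726.1 and 2293.4. On 8wk replicate 1 the sum of the pan-leukocyte markers was thus the lowest of the 6, and that of the monocyte, macrophage and granulocyte markers the second highest, close to the 4 arrays below it. The granulocyte and monocyte markers S100A9, S100A12 and ITGAM, the T cell marker CD5 and the B cell markers CD79A and BLK lay below the highest Bacillus control on all 6 arrays, and no marker was at 0.

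The 19 T and NK cell markers on the array summed to 1594.9 and 2606.0 on the 2-week arrays, 2021.2 and 1595.0 on the 4-week arrays and 1443.4 and 1135.1 on the 8-week arrays. Of them, the cytotoxic protein perforin (PRF1) alone differed by at least 1 between the 8-week arrays, at 140.1 and 55.2. The erythroid gene HBB was at 12.5 and 317.9 at 2 weeks and at 43.6 to 109.4 later. Its 12.5 lies below the highest Bacillus control (28.1), so the difference is not sized. Testis cell markers had a median difference of 0.06 between the 8-week arrays and endothelial markers of -0.14. The testis median pools genes that went either way, with 9 of 16 higher on 8wk replicate 1. They ran from -0.79 for UCHL1 (510.6 and 893.6) to 0.59 for CYP17A1 (3663.2 and 2433.9). Between the 2-week arrays the median of testis cell markers was 0.35. Of 16, 13 were higher on 2wk replicate 2, against 50.9% of all tested probe sets. For endothelial markers it was -0.01, with 5 of 10 higher there. After centring, testis cell markers averaged 0.09 on 2wk replicate 2, 0.06 and 0.07 on the 8-week arrays and -0.23 on 2wk replicate 1. Of the 16, 5 were highest on 2wk replicate 2, as were 31.6% of all tested probe sets. HBB and most leukocyte and testis cell markers were thus higher on 2wk replicate 2 than on its partner. Of the 10 genes, 7 were higher there too, ISG15, IFI6 and XAF1 by at least 1 and RSAD2 by 0.00. IFI44 (-0.72), RTP4 (-0.43) and IFI44L (-0.29) were lower there. The part of blood, leukocytes and testis cells in the signals of the 10 genes was not tested. In RNA of whole tissue, more cells of a type and more RNA per cell cannot be told apart.

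Genes whose pattern was most like that of the 10 genes were found by the root mean square distance between their centred log2 profile and the mean profile of the 10 over the 6 arrays, among 6998 other genes. The nearest was PLAC8B (distance 0.15), at 235.0 and 354.2 (2wk), 265.4 and 186.3 (4wk) and 650.9 and 205.3 (8wk). IFI16, a DNA sensor, followed (0.21) at 314.4 on 8wk replicate 1 and 151.8 to 199.0 elsewhere. The others were LOC100298356 (0.22), ZNFX1 (0.26), LOC282255 (0.28), PARP9 (0.30), IFITM1 (0.32), GBP5 (0.32), EPSTI1 (0.32) and DHX58 (0.33). The 10 genes themselves lay between 0.16 (MX1) and 0.52 (ISG15) from their own mean, which they help to set. Of these 10 nearest genes, 7 were on the lists of pathway genes above: IFI16, ZNFX1, PARP9, IFITM1, GBP5, EPSTI1 and DHX58. Those lists hold 72 of the 6998 genes ranked. They were chosen with earlier results of these data known, so the count is a description. The mean profile of the 10 genes was at 1.17 on 8wk replicate 1 and between -0.41 and 0.14 on the other arrays, so that array carries most of the measure.

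Not every gene with a large difference between the 8-week arrays is an interferon gene by its name. The 10 other genes with the largest values included LOC508666 (3.15), the aldehyde oxidase AOX1 (2.18), GNB4 (1.87), the axon guidance receptor ROBO1 (1.78), ACSM1 (1.70) and PLAC8B (1.59). For the other 4, SHFL, D2HGDH, PTMS and LIMD2, the 8wk replicate 2 signal did not reach the highest Bacillus control, so their differences are neither sized nor ranked. SHFL, or Shiftless, is an interferon-induced inhibitor of viral frameshifting and was at 99.9 on 8wk replicate 1. AOX1 was at 528.0 and 87.2 (2wk), 119.9 and 305.4 (4wk) and 562.1 and 111.5 (8wk), so it varied between replicates at each age, unlike RSAD2. ROBO1 was at 1075.6 and 302.2 at 8 weeks and at 534.7 to 645.2 on the other 4 arrays.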

How the data were processed

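The file holds 1 linear intensity for each probe set and array, as deposited. The software named is GCOS 1.4.0.036, per the submitters' processing notes; how probes were summarised is not given in the sources used here. Intensities show that the authors had scaled each array to 1 trimmed mean (125.02 to 125.03, with 2% left out at each end). The 112 control probe sets were left out, which left 24016. The platform annotation, from which names were taken, gives 1 symbol to 13292 probe sets, several to 86 and none to 10638; probe sets with several or none were tested but not named.

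Log2(intensity + 16) was fitted with limma 3.58.1 in R 4.3.3 (lmFit, eBayes with a trend, 1 coefficient per age, all 6 arrays) on the upper 60% of probe sets by mean (14409), with Benjamini-Hochberg adjustment over all of them. The fit was tested on simulated data. A gene is described by its brightest probe set. Genes named from a list are up to 4 with the largest difference between the 8-week arrays, plus a fixed panel of signalling genes. The 10 genes and all lists were chosen with earlier results of these data known. Alternatives were other pseudocounts (1 and 64), filters, quantile normalization, a replicate block, an untrended prior and each array left out. No sequence table was used here, so no promoter search was made.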

Additional observations from a re-analysis of the deposited data

How the results depend on the processing

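The direction of the age difference between 8 and 2 weeks rested on 1 array: leaving out each array in turn, the median difference of the 10 genes ran from -0.20 to 1.18 between 8 and 2 weeks, from -0.33 to -0.20 between 4 and 2 weeks and from 0.05 to 1.54 between 8 and 4 weeks. Between 4 and 2 weeks it was -0.34 with the upper 40% filter and -0.12 over all 18 probe sets, against -0.20. The number of probe sets called by limma, 0 in each comparison, ran from 0 to 1926 between 8 and 2 weeks, 0 to 1128 between 4 and 2 weeks and 0 to 1 between 8 and 4 weeks, and that of the 18 probe sets of the 10 genes from 0 to 1 between 8 and 2 weeks. Between 8 and 2 weeks limma called 1 probe set with a pseudocount of 64 and 8 with the replicate block. The labels do not say whether replicate numbers pair the samples, and the values do not decide it. The correlation of same-numbered deviations was 0.21 between 2 and 4 weeks, 0.00 between 2 and 8 weeks and -0.06 between 4 and 8 weeks. Both RNA quality ratios differed in 1 direction between replicates at every age. The count of genes at least 1 higher on 8wk replicate 1 than on its partner was 9, 6 and 8 with pseudocounts of 1 and 64 and with quantile normalization, and the median difference 1.76, 1.23 and 1.50; these counts were added after seeing the data. The same count for 2wk replicate 2 against its partner, also added later, was 3, 2 and 2. Differences within an age need both of its arrays, so none could be left out there.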
